A study of Mus musculus with 7 samples.

Results

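The constitutive proteasome subunits were 36 of the 24421 genes in a read count table of mouse tumours. They were chosen by symbol: every Psma, Psmb, Psmc or Psmd gene whose name ends in a number, other than the immunoproteasome genes Psmb8, Psmb9 and Psmb10. The rule gave 16 genes of the core particle (8 Psma and 8 Psmb) and 20 of the regulatory particle (6 Psmc and 14 Psmd). Not all of them are subunits of the ordinary particle. Psma8 encodes a testis form and Psmb11 a thymus form of a core subunit, and Psmd5, Psmd9 and Psmd10 encode chaperones that help to assemble the regulatory particle and are not part of the finished one.

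Polyadenylated RNA was sequenced from 7 tumours, each from a separately named mouse and labelled week 4. All 7 mice received anti-PD-1, an antibody against an inhibitory receptor of T cells. In 3 of them it was given with anti-KLH, a control antibody (controls), and in 4 with anti-Lair1, an antibody against a collagen-binding inhibitory receptor of leukocytes (anti-LAIR1). The series text describes 2 tumour models, and which of them gave these 7 samples is not stated in the sources used here: 344SQ cells, a line derived from K-rasLA1/+p53R172H∆g/+ mice, placed under the skin of 129/Sv mice aged 6 to 8 weeks, or lung tumours of KrasLSL-G12D/p53fl/fl mice given adenovirus-cre at 3 to 4 months. For the first model the text gives anti-LAIR at 10 mg/kg in 2 doses per week and anti-PD-1 at 8 mg/kg in 1 dose per week. Mouse names carry the prefix WTSV throughout the anti-LAIR1 group, and LOHM or KWM in the controls; what the prefixes mark is not stated, and it cannot be told apart from treatment.

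The proteasome is the protease complex that degrades ubiquitin-tagged proteins in every cell. Its core is a barrel of 4 stacked rings, the outer ones built from alpha subunits (Psma genes) and the inner ones from beta subunits (Psmb genes), and 3 of the beta subunits cut the substrate. The regulatory particle caps the barrel: a ring of ATPases (Psmc genes) unfolds the substrate, while non-ATPase subunits (Psmd genes) bind and remove ubiquitin. Under interferon gamma, cells replace the 3 cutting subunits in newly made cores by Psmb8, Psmb9 and Psmb10, which changes the peptides available to MHC class I. Transcription of the constitutive genes is known to be raised together by the factor NFE2L1 through antioxidant response elements when proteasome activity falls short.

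Upstream sequences of the members are shown because this known route of joint control runs through them. RefSeq gave the start site of 29 of the 36 genes on GRCm38, the assembly that mm10 names. The 250 bases before each start were searched on both strands for the core of the antioxidant response element, TGACNNNGC, as well as CCAAT and TATAAA, each counted on its own so that a base could serve more than 1 motif. TGACNNNGC occurred before 5 of the 29 genes (17.2%), against 11.5% of 27025 genes with such a sequence. CCAAT occurred before 41.4% against 37.5%, and TATAAA before 10.3% against 14.3%. These are letter matches in a short window and not binding sites. The 5 genes were Psmb5, Psmb6, Psmc6, Psmd12 and Psmd9. The sequences of 4 of them follow, 5′ to 3′ on the strand of the gene, with the match to TGACNNNGC or its complement in capitals and without bases that lie in an annotated transcript. Psmb5 (chr14:54618023-54618245, minus strand) and Psmb6 (chr11:70525107-70525356, plus strand) encode cutting subunits, Psmc6 (chr14:45329574-45329787, plus strand) an ATPase and Psmd12 (chr11:107479278-107479483, plus strand) a lid subunit.
Psmb5: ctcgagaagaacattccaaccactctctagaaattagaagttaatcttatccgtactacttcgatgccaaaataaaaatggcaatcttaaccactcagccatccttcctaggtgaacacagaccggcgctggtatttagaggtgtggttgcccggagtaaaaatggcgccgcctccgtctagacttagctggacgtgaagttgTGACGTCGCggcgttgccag
Psmb6: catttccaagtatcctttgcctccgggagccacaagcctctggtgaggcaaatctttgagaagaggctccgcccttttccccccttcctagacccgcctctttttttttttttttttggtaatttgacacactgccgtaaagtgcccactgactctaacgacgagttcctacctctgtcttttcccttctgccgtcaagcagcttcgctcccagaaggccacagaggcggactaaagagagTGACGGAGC
Psmc6: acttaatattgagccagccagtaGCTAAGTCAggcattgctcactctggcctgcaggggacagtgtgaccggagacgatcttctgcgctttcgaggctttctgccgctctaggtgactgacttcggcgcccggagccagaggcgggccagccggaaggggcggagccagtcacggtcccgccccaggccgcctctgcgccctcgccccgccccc
Psmd12: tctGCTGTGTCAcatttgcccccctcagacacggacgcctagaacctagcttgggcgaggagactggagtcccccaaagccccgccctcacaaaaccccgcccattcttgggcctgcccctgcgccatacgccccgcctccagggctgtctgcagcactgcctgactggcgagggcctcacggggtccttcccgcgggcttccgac
The match lies 47 bases before the start in Psmb5 and 9 bases before it in Psmb6, counted from its first base, while those of Psmc6 and Psmd12 lie 227 and 247 bases before it.

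Library totals ran from 9879762 to 26255727 counts, control replicate 1 being the deepest. Levels are given as CPM, counts per 1000000 of the scaled library total. Krt8, Krt18, Krt19 and Cdh1 were high in every library, with Krt19 from 450.99 to 730 CPM and Cdh1 from 2140 to 3283 CPM. The 3 other epithelial genes were lower: Epcam had 11.9 to 26.6 CPM, and Cldn4 and Cldn7 at most 1.73 and 0.527 CPM. Together the 7 summed to between 4279 and 5319 CPM. Of 6 lung epithelial genes, Nkx2-1 had 129 to 210.3 CPM, Sftpb 1094 to 3103 CPM and Ager 5.19 to 25.4 CPM. Sftpc, Scgb1a1 and Foxj1 had at most 0.524, 0.218 and 0.673 CPM. The summed CPM of 12 leukocyte markers was higher in all anti-LAIR1 libraries (372 to 462) than in any control (267 to 317). The sums of 6 endothelial markers (133 to 158 against 97.0 to 127) and 8 skeletal muscle markers (10.2 to 116 against 5.07 to 8.00) were separated likewise. The groups overlapped in the sums of epithelial, lung epithelial, fibroblast, keratinocyte, adipocyte and proliferation markers. Taken singly, 4 of 11 tested leukocyte genes, 2 of 6 endothelial genes and 1 of 3 tested muscle genes were separated upwards, against 3.06% of all genes. None of these marker genes had an edgeR adjusted p under 0.05. Ttn made up most of the mean muscle sum, with 2.97 to 94.6 CPM over the 7 libraries. In a bulk tumour a changed number of cells of a type and a changed amount of RNA per cell cannot be told apart.

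The members were abundant and steady. The 34 that passed the count filter had between 119 and 4498 counts in a library, with a median level of 5.89 log2 CPM against 4.68 for all 13545 genes tested. Over the 7 libraries the SD of log2 CPM had a median of 0.129 among them, against 0.197 among all genes tested, and all 34 lay below 0.197. The lowest SD was that of Psmd5 (0.039) and the highest that of Psmb5 (0.19). Genes with more counts have smaller SDs, and the members were not compared with other genes of their level.

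The 2 members below the filter were the tissue-restricted ones. Psma8, the testis alpha subunit, had from 2 to 9 counts per library, and Psmb11, the beta subunit of thymus epithelium, had 0 counts in all 7, where 3 counts would be worth between 0.119 and 0.305 CPM. Psmb11 lies next to Psmb5 on chromosome 14 (54621433 to 54629556 and 54614119 to 54618022). The 34 tested members were spread over 15 chromosomes, with at most 6 on 1 chromosome.

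Per length, the highest of the 34 tested subunit transcripts lay 15.4-fold above the lowest. The spread was not compared with that of other genes. Levels were divided by the exon length of protein-coding transcripts in GENCODE M21 and are given as CPM per kilobase, averaged over the 7 libraries. The median was 40.6 for the core and 33.99 for the regulatory particle. Psmb2, a structural beta subunit, was highest at 79.8 (from 65.6 to 87.2 over libraries), followed by Psmb6 at 75.7 (72.2 to 80.2), and these ranges overlapped. The ATPases formed the tightest class, from 21.6 for Psmc1 to 44.4 for Psmc6. All 3 assembly chaperones were among the 4 lowest genes, with 12.4 for Psmd5, 7.41 for Psmd10 and 5.18 for Psmd9. The order depends on the annotated exon length. Psmd5 had the longest of the tested members, 4397 bases, and before division by length it averaged 54.8 CPM in controls. Psmd10 and Psmd9 were low before division too, averaging 11.8 and 13.5 CPM in controls.

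**Figure D1:**
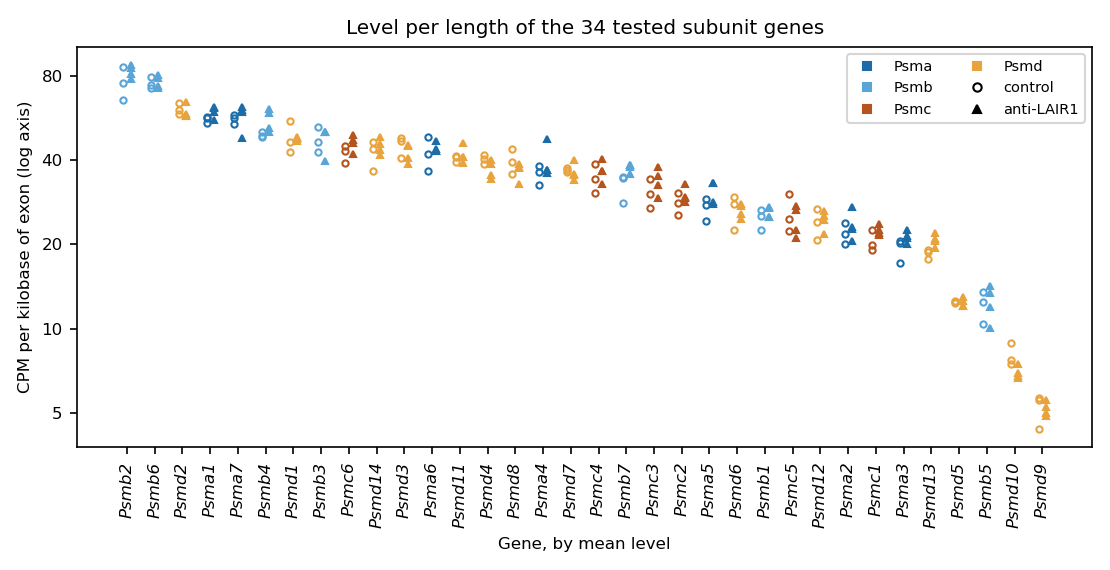
CPM per kilobase of exon (vertical, log axis) of the 34 tested subunit genes, ordered by mean level; each point is 1 library, open circles controls and filled triangles anti-LAIR1, coloured by gene class. Psmb2 and Psmb6 are highest, Psmb5 and the chaperones Psmd5, Psmd10 and Psmd9 lowest, and the groups overlap for all but Psmb7 and Psmd13.

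The other low gene was Psmb5, which encodes the subunit with chymotrypsin-like activity. It had 12.2 CPM per kilobase, from 10.03 to 14.1, against 75.7 for Psmb6 and 35.4 for Psmb7, the other cutting subunits. Of the 100-base windows of its longest transcript, as long as the reads, 24.9% occur unchanged in the annotated transcript of another gene (Gm3375 or the microRNA gene Mir686 inside Psmb5). Reads from such windows may be lost or moved, depending on settings not given in the sources used here. Gm3375 was not among the 24421 genes counted, and Mir686 had 0 CPM in all 7 libraries. Among the 36 members, 13 had any shared window and 6 had more than 10%, the highest being Psma5 with 27.5%, and the part of shared windows in the low level of Psmb5 was not tested.

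Between the treatments no subunit passed the test. By edgeR's quasi-likelihood test with Benjamini-Hochberg adjustment over all 13545 genes tested, 0 of 34 members had an adjusted p under 0.05, where the share of all genes was 0.0%, and the smallest adjusted p among members was 0.98. At an unadjusted p under 0.05 the count of members was also 0, against 5.15% of all genes (3.51% higher and 1.63% lower with anti-LAIR1). DESeq2 and limma-voom called 0 members as well, where they called 0.329% and 0.0% of all genes. The groups did not overlap for 2 members, Psmb7 and Psmd13, both higher with anti-LAIR1, where 3.06% of all genes were separated in that direction, 2.51% in the other and 5.57% in either.

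The fold changes were small and their intervals bound them. All 34 members had a 95% interval inside a factor of 1.5 in either direction, against 62.7% of all genes tested, whose median level was lower. The widest reach downwards was that of Psmd10, whose interval began at a fold of 0.703, and upwards that of Psmb7, whose interval ended at a fold of 1.36. In counts simulated for these libraries, with 13561 genes tested, the test called 15 of 50 genes altered 1.5-fold and 39 of 50 altered 2-fold. It called 0 of 50 at the smallest factor simulated, and made 8 false calls. That factor was larger than the change of any member, whose folds ran from 0.87 for Psmd10 to 1.16 for Psmb7. Differences of the size seen here were thus smaller than any that the test called among the altered genes.

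**Figure D2:**
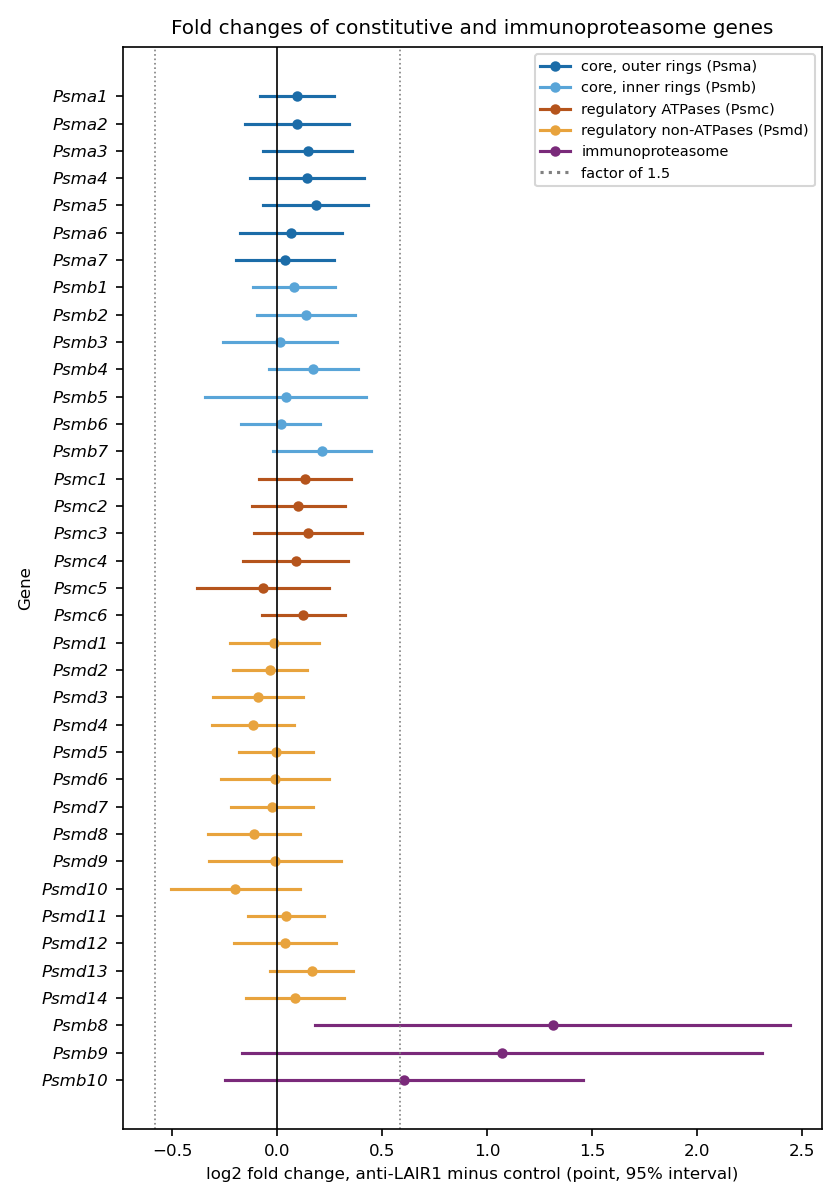
log2 fold change, anti-LAIR1 minus control, of each tested subunit gene (point) with its 95% interval (line), by class, with Psmb8, Psmb9 and Psmb10 at the bottom; dotted lines mark a factor of 1.5. The 34 constitutive genes stay inside the dotted lines, from -0.20 to 0.21, while the immunoproteasome genes lie between 0.60 and 1.31 with wide intervals.

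Core particle genes leaned slightly upwards with anti-LAIR1. All 14 tested core members had a log2 fold change above 0, where 49.1% of all genes did, but the changes ran only from 0.014 to 0.21 with a median of 0.094, against -0.0028 for all genes. All 14 were also above 0 with DESeq2 size factors or with library totals as scaling, and with limma-voom 10 of 14 were (median 0.038). Without control replicate 1 the median was 0.036 with 10 of 14 above 0, and without anti-LAIR1 replicate 4 again 10 of 14 were above 0 (median 0.062).

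The lean was uneven over the libraries. In control replicate 1, 0 of 14 core members were above their own 7-library mean and the mean deviation was -0.19 log2 units. In control replicates 2 and 3, 5 and 7 of 14 were above it. In anti-LAIR1 replicates 1 and 2 it was 6 and 4 of 14, and in replicates 3 and 4 it was 12 and 13, with mean deviations of 0.077 and 0.13. Control replicate 1 was thus low for every tested core gene, and anti-LAIR1 replicates 3 and 4 were high for most of them. Of the 14 core genes, 9 were lowest in control replicate 1, which was the lowest library for 15.7% of all genes tested. This was not limited to the core: 10 of 20 regulatory genes were lowest there too, 5 of 6 Psmc and 5 of 14 Psmd genes. The summed level of the regulatory genes was 1273 CPM in control replicate 1, against 1361 to 1464 CPM in the other libraries.

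Summed over the core genes, the level was 671 CPM in control replicate 1, 757 and 763 CPM in control replicates 2 and 3, and 758, 751, 796 and 826 CPM in anti-LAIR1 replicates 1 to 4. Control replicate 1 also had the largest total and the largest share of counts in its 10 most abundant genes (13.9%, against 10.9% to 11.96% elsewhere). It had the lowest sum of 8 proliferation genes such as Mki67, 416 CPM, where the other controls had 653 and 734 CPM. Anti-LAIR1 replicates 3 and 4, the highest libraries for core genes, were also the highest for proliferation genes, 871 and 826 CPM, against 508 and 599.5 CPM in replicates 1 and 2. The part of depth, composition or proliferation in the core levels was not tested.

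**Figure D3:**
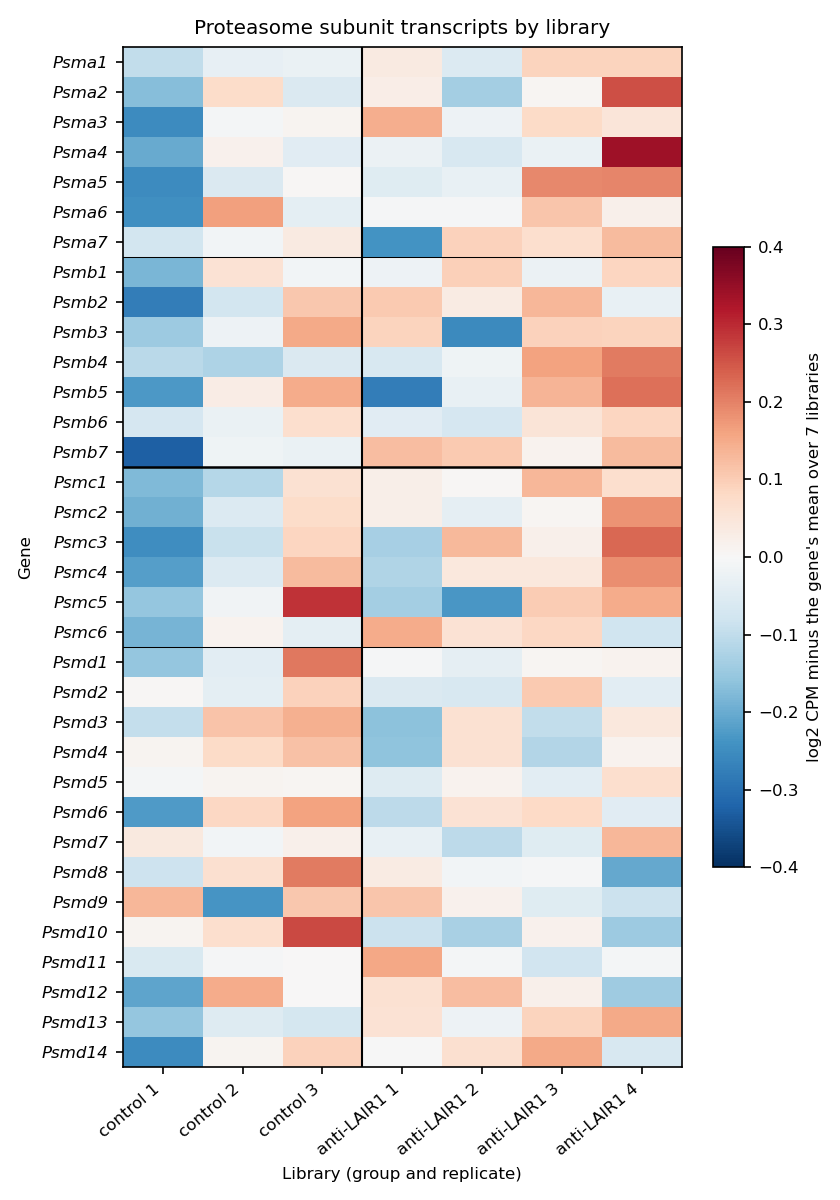
Deviation of each gene's log2 CPM from its mean over 7 libraries (colour, blue lower and red higher) for the 34 tested members (rows, by class, a thick line parting core from regulatory genes) and the 7 libraries (columns, controls left of the vertical line). Control 1 is blue for all Psma, Psmb and Psmc genes, anti-LAIR1 3 and 4 are mostly red for them, and most Psmd genes are red in control 3.

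The alpha subunits form the gated outer rings. Their 7 fold changes ran from 0.036 for Psma7 to 0.18 for Psma5 on the log2 scale, with a median of 0.095. Psma5 (chromosome 3, 108256926 to 108279974) had 30.0 CPM, 34.3 CPM and 35.8 CPM in the controls and 34.6 CPM, 34.99 CPM, 40.8 CPM and 40.9 CPM with anti-LAIR1. Anti-LAIR1 replicates 3 and 4 lay above all controls and replicates 1 and 2 within their range, giving a log2 fold change of 0.18 ± 0.11 SE (adjusted p = 0.99 by edgeR). Psma3, second by p, had 48.6 CPM, 57.5 CPM and 58.2 CPM in the controls and 63.9 CPM, 57.1 CPM, 60.96 CPM and 59.8 CPM with anti-LAIR1. Only control replicate 1 was clearly apart.

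Among the beta subunits, the 7 fold changes ran from 0.014 for Psmb3 to 0.21 for Psmb7, with a median of 0.079. Psmb7 (chromosome 2, 38588036 to 38644087) encodes the subunit with trypsin-like activity. It had 32.6 CPM, 40.3 CPM and 40.1 CPM in the controls and 44.4 CPM, 43.9 CPM, 41.3 CPM and 44.6 CPM with anti-LAIR1. All 4 anti-LAIR1 libraries lay above all 3 controls, though the nearest libraries had 41.3 CPM and 40.3 CPM. Its log2 fold change was 0.21 ± 0.10 SE (adjusted p = 0.98 by edgeR), or 0.11 without control replicate 1. Of its 100-base windows, 19.98% match the opposite strand of Nek6, a kinase gene that overlaps it and had 115 ± 3.39 CPM (SD, n = 3) in controls and 111 ± 11.7 CPM (SD, n = 4) with anti-LAIR1.

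The other cutting subunits had fold changes near 0. Psmb5 had 9.30 CPM, 11.1 CPM and 12.1 CPM in the controls and 9.02 CPM, 10.7 CPM, 12.003 CPM and 12.7 CPM with anti-LAIR1. Both groups spanned the same range, and the log2 fold change was 0.04 (95% interval from -0.34 to 0.42). Psmb6, with caspase-like activity, had 57.6 CPM, 59.2 CPM and 63.2 CPM in the controls and 58.5 CPM, 57.6 CPM, 62.6 CPM and 64.0 CPM with anti-LAIR1, a log2 fold change of 0.02 (95% interval from -0.17 to 0.21). The signs of both turned when control replicate 1 or anti-LAIR1 replicate 4 was left out. Psmb4, a structural subunit, had 57.7 CPM, 57.2 CPM and 59.8 CPM in the controls and 59.5 CPM, 61.5 CPM, 69.5 CPM and 71.9 CPM with anti-LAIR1. Its 3 highest libraries were anti-LAIR1 replicates 2, 3 and 4, with a log2 fold change of 0.17 ± 0.09 SE (adjusted p = 0.98 by edgeR).

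Regulatory particle genes had no common direction. Of 20 members, 9 were above 0 and 11 below, with a median of -0.0078 and a range from -0.20 to 0.16. With library totals as scaling 14 of 20 were above 0, and the sign of the median differed from that given here in 7 of 14 other settings, including each library left out, whose medians all lay between -0.017 and 0.053. Without the 3 assembly chaperones the median was 0.035 over 17 genes.

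By class, 5 of the 6 ATPase genes were above 0 (median 0.11). Of the 14 Psmd genes 4 were above and 10 below 0, with a median of -0.013 that lay close to the -0.0028 of all genes. The Psmd count depended on the scaling: with library totals, which put the median of all genes at 0.027, 9 of 14 Psmd genes were above 0 (median 0.014), and 5 of 6 ATPase genes (median 0.14). Without control replicate 1, 4 of 6 ATPase genes (median 0.047) and 3 of 14 Psmd genes (median -0.054) were above 0. Without control replicate 3 it was 6 of 6 (median 0.17) and 7 of 14 (median 0.017). The difference between the classes was not tested. By library, 0 of 6 ATPase genes were above their own mean in control replicate 1, 1 and 5 of 6 in control replicates 2 and 3, and 3, 4, 6 and 5 of 6 in anti-LAIR1 replicates 1 to 4. They were thus low in control replicate 1 and mostly high in control replicate 3 as well as in anti-LAIR1 replicates 3 and 4. The Psmd genes had their highest count in control replicate 3, where 13 of 14 were above their own mean, with 5 and 8 of 14 in control replicates 1 and 2 and between 5 and 7 of 14 in each anti-LAIR1 library.

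Psmc6 and Psmc1 had the smallest p of the ATPase genes. Psmc6 had 87.1 CPM, 99.9 CPM and 96.3 CPM in the controls and 109.8 CPM, 103 CPM, 105 CPM and 93.6 CPM with anti-LAIR1. Anti-LAIR1 replicate 4 fell within the control range and the others above it, with a log2 fold change of 0.12 ± 0.09 SE (adjusted p = 1.00 by edgeR). Psmc1 had 30.3 CPM, 31.6 CPM and 35.7 CPM in the controls and 34.8 CPM, 34.3 CPM, 37.6 CPM and 35.9 CPM with anti-LAIR1, the groups overlapping through control replicate 3. Psmc5 was the 1 ATPase gene below 0, at -0.07 (95% interval from -0.38 to 0.25).

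Among the non-ATPase genes, Psmd13 and Psmd10 had the smallest p, in opposite directions. Psmd13 (chromosome 7, 140881968 to 140898643), a structural subunit of the lid, had 35.2 CPM, 37.8 CPM and 37.3 CPM in the controls and 40.8 CPM, 38.6 CPM, 41.6 CPM and 43.5 CPM with anti-LAIR1. The groups did not overlap, giving a log2 fold change of 0.16 ± 0.09 SE (adjusted p = 0.98 by edgeR). Of its windows, 12.9% match the opposite strand of Sirt3, a mitochondrial deacetylase gene with 4.83 ± 0.916 CPM (SD, n = 3) in controls and 4.27 ± 1.245 CPM (SD, n = 4) with anti-LAIR1. Psmd10, the chaperone also called gankyrin, had 10.9 CPM, 11.4 CPM and 13.03 CPM in the controls and 10.2 CPM, 9.91 CPM, 10.97 CPM and 9.81 CPM with anti-LAIR1. Anti-LAIR1 replicate 3 lay just above control replicate 1 and the other treated libraries below all controls, with a log2 fold change of -0.20 ± 0.14 SE (adjusted p = 1.00 by edgeR).

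None of the subunits that handle ubiquitin passed the test. Psmd14, the enzyme that removes ubiquitin chains from the substrate, had 56.4 CPM, 67.6 CPM and 71.5 CPM in the controls and 66.96 CPM, 70.1 CPM, 74.4 CPM and 64.2 CPM with anti-LAIR1, with a log2 fold change of 0.08 (95% interval from -0.15 to 0.32). Psmd4, a ubiquitin receptor, had 70.9 CPM, 74.2 CPM and 76.3 CPM in the controls and 62.9 CPM, 73.5 CPM, 64.9 CPM and 71.1 CPM with anti-LAIR1. Anti-LAIR1 replicates 1 and 3 lay below the controls and the others among them, and the log2 fold change was -0.12 (95% interval from -0.31 to 0.08). Psmd2, the large scaffold that docks ubiquitin receptors, was the member with the highest CPM, 178 CPM, 173 CPM and 189 CPM in the controls and 170.3 CPM, 169 CPM, 191 CPM and 172 CPM with anti-LAIR1 (log2 fold change -0.03). Psmd5, the steadiest member, held between 52.7 CPM and 57.2 CPM in all 7 libraries.

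The immunoproteasome genes, which encode the inducible partners of Psmb5, Psmb6 and Psmb7, varied far more than these. The SD of log2 CPM over the 7 libraries had a median of 0.94 among them. Psmb8 averaged 20.7 CPM in controls and 52.3 CPM with anti-LAIR1 (log2 fold change 1.31, SE 0.48, edgeR adjusted p = 0.94). Psmb9 averaged 8.11 CPM and 17.5 CPM and Psmb10 21.5 CPM and 32.98 CPM in the same order, with log2 fold changes of 1.07 and 0.60 and edgeR adjusted p = 0.98 and 0.997. None passed the test, and their groups overlapped. Of the 100-base windows of Psmb9, 9.02% match the opposite strand of Tap1, a gene that overlaps it. Tap1 had 51.5 ± 29.9 CPM (SD, n = 3) in controls and 117 ± 55.5 CPM (SD, n = 4) with anti-LAIR1. The part of such windows in the Psmb9 counts was not tested.

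Ratios of each inducible subunit to its constitutive partner within a library put the members beside these genes without any scaling. For Psmb8 to Psmb5 the ratio of counts was 3.51, 1.40 and 1.13 in the controls and 7.49, 3.06, 2.33 and 6.32 with anti-LAIR1. Control replicate 1 reached into the anti-LAIR1 range, and the other controls lay below it. On the log2 scale the ratio was 0.83 ± 0.87 (SD, n = 3) in controls and 2.10 ± 0.81 (SD, n = 4) with anti-LAIR1, a difference of 1.27 (exact permutation test over 35 splits, two-sided p = 0.143, 0.257 adjusted over the 3 ratios). For Psmb9 to Psmb6 the ratio was 0.237, 0.0877 and 0.0877 in the controls and 0.432, 0.176, 0.134 and 0.408 with anti-LAIR1, a log2 difference of 1.06 (exact permutation p = 0.171, adjusted 0.257). For Psmb10 to Psmb7 it was 0.950, 0.342 and 0.496 in the controls and 0.802, 0.520, 0.549 and 1.14 with anti-LAIR1, a log2 difference of 0.39 (exact permutation p = 0.457, adjusted 0.457). None of the 3 ratios passed this test. The smallest p that 3 against 4 can give is 0.0286, and 1 ratio alone at that value would not pass 0.05 after adjustment. With so few libraries the test cannot show that the ratios were alike in the 2 groups.

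**Figure D4:**
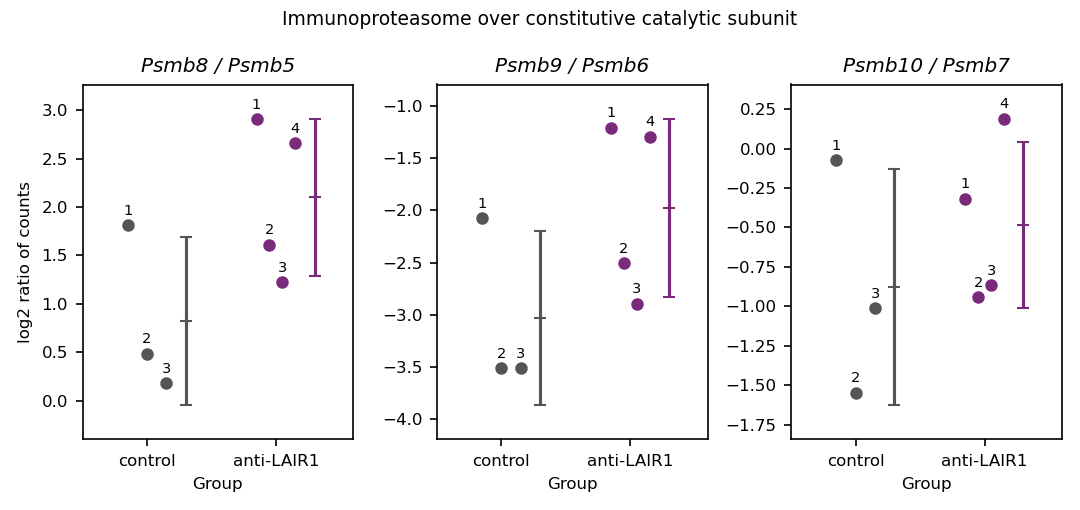
log2 ratio of the counts of an immunoproteasome gene to its constitutive partner (vertical) in each library (points, numbered by replicate) by group, with the group mean and SD beside them. In each panel control 1 lies far above the other 2 controls, and anti-LAIR1 1 and 4 above anti-LAIR1 2 and 3.

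In each ratio control replicate 1 lay above both other controls, and anti-LAIR1 replicates 1 and 4 above replicates 2 and 3. Left out, control replicate 1 gave log2 differences of 1.77, 1.53 and 0.80 for the 3 ratios in the order above. Among genes that respond to interferon gamma, the one with the smallest p was the chemokine gene Cxcl10 (log2 fold change 1.61, edgeR adjusted p = 0.62). The library with the lowest core levels, control replicate 1, was thus the control with the highest ratios of inducible to constitutive subunits. Anti-LAIR1 replicate 4, with the highest core sum (826 CPM), also had high ratios, 6.32, 0.408 and 1.14 in the same order. Each ratio has a core gene as its denominator, and a link between core levels and ratios was not tested.

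Among genes that act with the proteasome no gene passed the test either, and the PA28 activator genes had the largest fold changes. Of 5 activator and inhibitor genes 0 passed the test and 4 were above 0 (median 0.013). Psme1 and Psme2, the PA28 subunits that interferon gamma is known to induce, had log2 fold changes of 0.44 (SE 0.19, edgeR adjusted p = 0.97) and 0.33, and Psme3 and Psme4, which encode other activators, 0.013 and 0.010. Psme1 averaged 112 CPM in controls and 151 CPM with anti-LAIR1. Of 5 assembly factor genes 0 passed and 3 were above 0 (median 0.0098), Psmg2, a chaperone of alpha ring assembly, having the smallest p in that list (0.22, edgeR adjusted p = 1.00).

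Of 12 genes for associated factors, among them ubiquitin receptors, ligases and deubiquitinases, 0 passed and 6 were above 0 (median -0.0043). The one with the smallest p was AI314180, the mouse gene for the scaffold ECM29 (0.06, edgeR adjusted p = 1.00). Adrm1 (-0.05) and Shfm1 (0.04) are in this list because their symbols fall outside the rule for members. The 20 regulatory members therefore need not be the whole particle. Of 7 genes around NFE2L1, the known regulator of subunit transcription, 0 passed and 4 were above 0 (median 0.089). Nfe2l1 itself averaged 258 CPM in controls and 243 CPM with anti-LAIR1 (log2 fold change -0.09, edgeR adjusted p = 1.00), and Nfe2l2, which encodes NRF2, had 0.09. Of 6 ubiquitin and ubiquitin-activating enzyme genes 0 passed and 3 were above 0 (median -0.0099), Uba6 having the smallest p in that list (0.11, edgeR adjusted p = 1.00).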

How the data were processed

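The deposited values are whole-number counts, 1 gene symbol per row and 1 mouse per column. The submitters' processing notes name mm10, featureCounts 2.0.1, STAR 2.7.6, edgeR 3.40.1 and Trim Galore. They do not name the annotation, the strand setting or how multiply matching reads were counted. Libraries were directional, per the labels' protocols.

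Here the counts entered edgeR 4.0.16 (R 4.3.3): filterByExpr (minimum count 10, 13545 genes), TMM scaling, and a robust quasi-likelihood fit of all 7 libraries without covariates. CPM use TMM-scaled totals, and log2 CPM a prior count of 2. Fold changes are anti-LAIR1 minus control. Intervals come from the fit. DESeq2 1.42.0 and limma 3.58.1 served as alternatives, beside other scaling, filters and leaving out each library. Ratios had 0.5 added to each count. Replicates were numbered in accession order. Control libraries 1 to 3 totalled 26255727, 13274458 and 9879762 counts; those given anti-LAIR1, numbered 1 to 4, totalled 15347403, 15100728, 11480651 and 13253993. Floors of 3 counts cover counting error only, and p-values measure the spread between these mice.

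The members and gene lists were chosen with earlier results of these data known. Values are given by rule for the 2 genes with the smallest p in each class, the cutting subunits, Psmd14, Psmd4, Psmd2, the steadiest and the most variable gene, genes with separated groups, genes below the filter, and the gene with the smallest p in each pathway list, with Psmb8, Psmb9, Psmb10 and Nfe2l1. Psma7, Psmb2, Psmb3, Psmc5, Psme2, Psme3, Psme4 and the overlapping genes were added after their values were seen. The fit was tested on simulated data. Gene positions and exon lengths are from GENCODE M21. The summed level of the interferon gamma response genes is not reported here.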

Additional observations from a re-analysis of the deposited data

Results flagged for a closer look

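In the anti-LAIR1 group, 1 library lay far from the other 3 for 3 of the 34 tested subunit genes, by the gap to its nearest neighbour as a share of the group's range (past Dixon's 95% critical value for 4 libraries, which chance passes in about 1 in 20 groups). The share of all genes tested that pass this value was not computed, so the count is not shown to be unusual. For Psmb3 the share was 0.990, with replicate 2 low at 30.3 CPM and the others between 38.4 and 38.5 CPM. For Psma4, an alpha subunit, it was 0.909, with replicate 4 high at 55.2 CPM and the others between 41.8 and 43.0 CPM. For Psmd2 it was 0.870, with replicate 3 high at 191 CPM and the others between 169 and 172 CPM. The log2 fold changes of these genes were 0.01, 0.14 and -0.03.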

How the results depend on the processing

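The counts of called members were 0 for the core and 0 for the regulatory particle under every alternative run, at an adjusted p under 0.05. The core median lay between 0.036 and 0.15 and the regulatory median between -0.017 and 0.053 over all alternatives. Over members with no shared window, an alternative chosen after seeing the data, the medians were 0.079 (7 core genes) and -0.011 (14 regulatory genes). Fold changes near 0 turned sign: Psmb5 with limma-voom (-0.00057) and between -0.070 and 0.13 without single libraries, Psmb6 between -0.017 and 0.052 and Psmd14 between -0.016 and 0.15 without single libraries, and Psmd5 with library totals (0.025) and between -0.031 and 0.014 without single libraries. The cause was not tested. Without single libraries the log2 differences lay between 0.95 and 1.77 for Psmb8 to Psmb5, 0.80 and 1.53 for Psmb9 to Psmb6, and 0.058 and 0.80 for Psmb10 to Psmb7. These splits cannot reach p under 0.05. Cxcl10 was called by DESeq2 only (adjusted p = 0.010). Over all genes DESeq2 called 47 and edgeR 0. Depth limits Psmb5 and Psmd10 most, with as few as 119 and 127 counts. No paired analysis was possible because the labels number no replicates and name each mouse separately.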
